A study of Mus musculus with 2 samples.

Results

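The 10 genes described here belong to the amino acid stress response controlled by the transcription factor ATF4: Atf4, Ddit3, Chac1, Trib3, Asns, Psat1, Phgdh, Shmt2, Stc2 and Sesn2. They were taken by symbol from a deposited table of 47644 genes, and each symbol was found in 1 row. All 10 reached at least 1 FPKM (fragments per kilobase of transcript, scaled to library size) in at least 1 library. The series compares whole eyeballs of C57BL/6 mice from a control with eyeballs from the oxygen-induced retinopathy (OIR) model, with 1 library each. In the model, mice entered a chamber of raised oxygen at day 7, left it after 5 days for ordinary air, and gave their eyes at day 17. The labels give the control only as control, with the same strain and tissue and no age of its own, and do not say how many eyes or animals went into a library. High oxygen halts the growth of retinal vessels, and on return to air the retina without vessels becomes hypoxic.

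In the integrated stress response, kinases that sense amino acid shortage, unfolded protein in the endoplasmic reticulum, heme lack or viral RNA phosphorylate the translation factor eIF2alpha. General translation then slows, while short upstream reading frames let the Atf4 mRNA be translated more, so that ATF4 protein can change without a change in Atf4 mRNA. ATF4 pairs with C/EBP family proteins on composite elements and turns on genes that make and import amino acids, genes that damp the response, and the gene of the pro-death factor CHOP. In the retina, Müller glia are known as a main site of serine synthesis.

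The promoter windows of 4 of the genes are shown: the 3 with a match to the core of the composite element, and the gene with the largest ratio between the libraries. The windows of Chac1, Trib3 and Asns each hold the core TGATGNAA, and that of Stc2 does not. Each window runs from 250 bases before to 50 bases after the transcript start, 5′ to 3′ on the gene's strand, from RefSeq on GRCm38.p6, the build also called mm10. Capitals mark TGATGNAA on either strand in the first 3 windows, and the hypoxia response core ACGTG or GCGTG on either strand in the Stc2 window. The hypoxia core also occurs in the Chac1, Trib3 and Asns windows, where it is not marked.
Chac1 (chr2:119350992-119351291, plus strand): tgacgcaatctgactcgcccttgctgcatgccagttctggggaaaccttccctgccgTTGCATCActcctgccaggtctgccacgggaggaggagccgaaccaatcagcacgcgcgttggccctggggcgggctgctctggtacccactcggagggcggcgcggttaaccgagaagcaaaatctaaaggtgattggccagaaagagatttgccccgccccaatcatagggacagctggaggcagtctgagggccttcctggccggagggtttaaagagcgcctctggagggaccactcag
Trib3 (chr2:152344011-152344310, minus strand): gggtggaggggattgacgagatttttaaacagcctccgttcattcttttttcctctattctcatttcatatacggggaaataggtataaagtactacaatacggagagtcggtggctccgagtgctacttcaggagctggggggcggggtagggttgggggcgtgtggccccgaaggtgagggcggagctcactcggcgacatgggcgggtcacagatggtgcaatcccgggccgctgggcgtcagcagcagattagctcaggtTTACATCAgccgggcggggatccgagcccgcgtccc
Asns (chr6:7693160-7693459, minus strand): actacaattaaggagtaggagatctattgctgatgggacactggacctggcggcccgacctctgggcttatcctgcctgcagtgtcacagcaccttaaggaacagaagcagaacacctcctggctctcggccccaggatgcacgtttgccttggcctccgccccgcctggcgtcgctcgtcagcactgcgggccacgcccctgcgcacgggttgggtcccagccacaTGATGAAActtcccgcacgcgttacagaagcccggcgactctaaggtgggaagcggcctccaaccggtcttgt
Stc2 (chr11:31370012-31370311, minus strand): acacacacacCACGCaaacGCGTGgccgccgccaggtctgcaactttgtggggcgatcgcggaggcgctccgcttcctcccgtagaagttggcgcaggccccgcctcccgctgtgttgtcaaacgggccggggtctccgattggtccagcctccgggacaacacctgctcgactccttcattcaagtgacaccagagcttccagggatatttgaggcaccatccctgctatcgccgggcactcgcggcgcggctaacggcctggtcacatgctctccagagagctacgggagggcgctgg

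In Chac1 the core lay on the strand opposite to the gene, from 193 to 186 bases before the transcript start (chromosome 2, 119351049 to 119351056). In Trib3 it also lay on the opposite strand, at bases 15 to 22 after the start, within the transcript (chromosome 2, 152344039 to 152344046). In Asns it lay on the gene's own strand, 23 to 16 bases before the start (chromosome 6, 7693225 to 7693232). All 10 genes had a window, and Psat1 had 2, for 2 starts. TGATGNAA was found for 3 of the 10 genes, and in 3.97% of all 32851 promoter windows of this length. The hypoxia core was found for 9 of the 10, all but Sesn2, and in 43.8% of all windows. The CCAAT box (CCAAT, either strand), the site of the factor NF-Y, was found for 7 of the 10 and in 37.4%. The 11 windows of these genes had a median of 60.7% G and C against 52.7% over all windows. A match is a run of letters, not a shown binding site, and ACGTG counts on both strands where it is part of CACGTG. Bases outside the windows were not searched, so a gene without a match may hold the motif elsewhere.

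**Figure D1:**
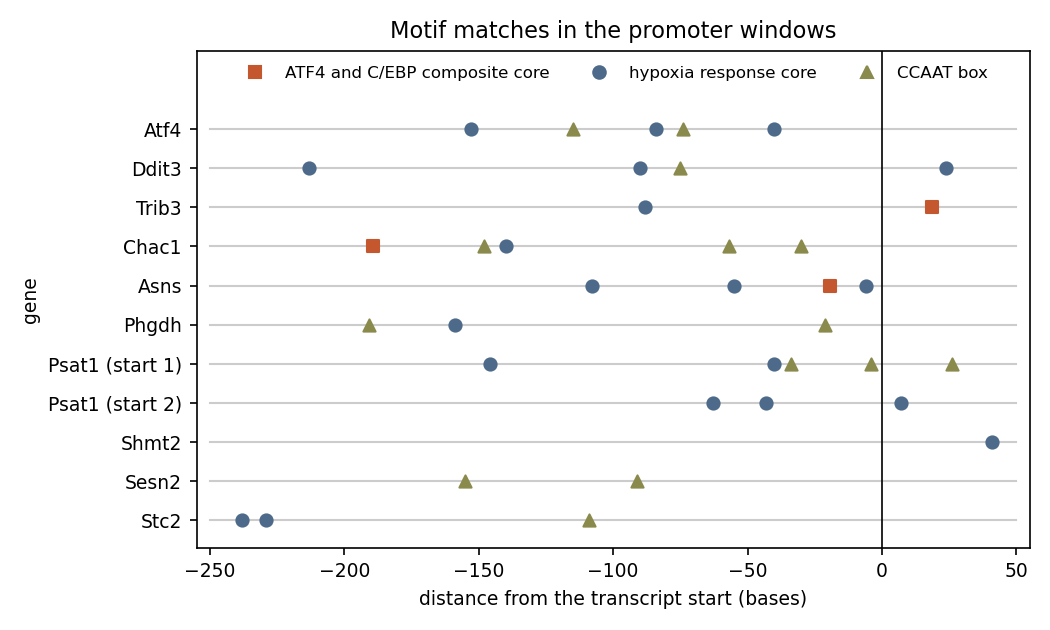
Positions of motif matches in the promoter windows of the 10 genes, with the distance from the transcript start in bases on the x axis and 1 grey line per window (2 for Psat1). Squares mark TGATGNAA, circles the hypoxia core and triangles the CCAAT box; squares appear only for Trib3, Chac1 and Asns.

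Gene counts summed to 15741235 reads for the control and 20378793 for OIR. The 10 genes together took 6906 reads (0.0439%) in the control and 9596 (0.0471%) in OIR. With 1 library per group, no difference has a replicate check and no p-value was computed. Intervals are exact 95% intervals and cover counting error only. Differences are given as log2(FPKM + 1), OIR minus control, and a gene counts as at least 2-fold higher or lower where this is at least 1 or at most -1. The median of all 15883 genes with 1 FPKM in either library, called tested genes below although no test was made, lay 0.11 above 0, and the authors' own scaling factors lower every log2 ratio by 0.14 (a shift of -0.14). As a check of the labelled tissue, all 10 rod photoreceptor markers reached 1 FPKM in at least 1 library, and Cryaa of the lens measured 49529 FPKM (control) and 35594 (OIR). Marker genes of other eye tissues and of blood also differed between the libraries. Corneal and conjunctival epithelium markers took 0.221% of reads in OIR and 0.0724% in the control, erythrocyte markers 0.0956% and 0.0344%, and lens markers 8.005% and 11.35%. The rRNA genes, which mark no tissue, took 0.153% of reads in OIR and 0.00791% in the control.

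Stc2 and Chac1, 2 of the 10 genes, stood at least 2-fold above the control in OIR, beside 3.07% of all tested genes, and none was at least 2-fold lower, beside 0.718%. Trib3 came next at 0.91. Atf4 itself had the same FPKM in both libraries, and Psat1 and Phgdh, the first enzymes of serine synthesis after glycolysis, stood lower in OIR. The median difference of the 10 was 0.23 (0.15 without Ddit3 and Shmt2, whose exons overlap other genes), against 0.11 for all tested genes, and 6 of the 10 lay above that overall median. A difference above 0 was found for 7 of the 10 and for 64.9% of all tested genes, the share against which the counts of higher genes in the lists below are to be read. The counting interval of the ratio of read shares lay above 1 for 6 of the 10 and below 1 for 2, Psat1 and Phgdh, while over all tested genes these shares were 36.7% and 14.7%. With the authors' factors the interval lay above 1 for 4 of the 10, since those of Ddit3 and Asns then included 1, and below 1 for 3, Atf4 being added, beside 23.2% and 25.4% of tested genes. In whole eyeballs, fewer cells of a type and less RNA per cell cannot be told apart.

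**Figure D2:**
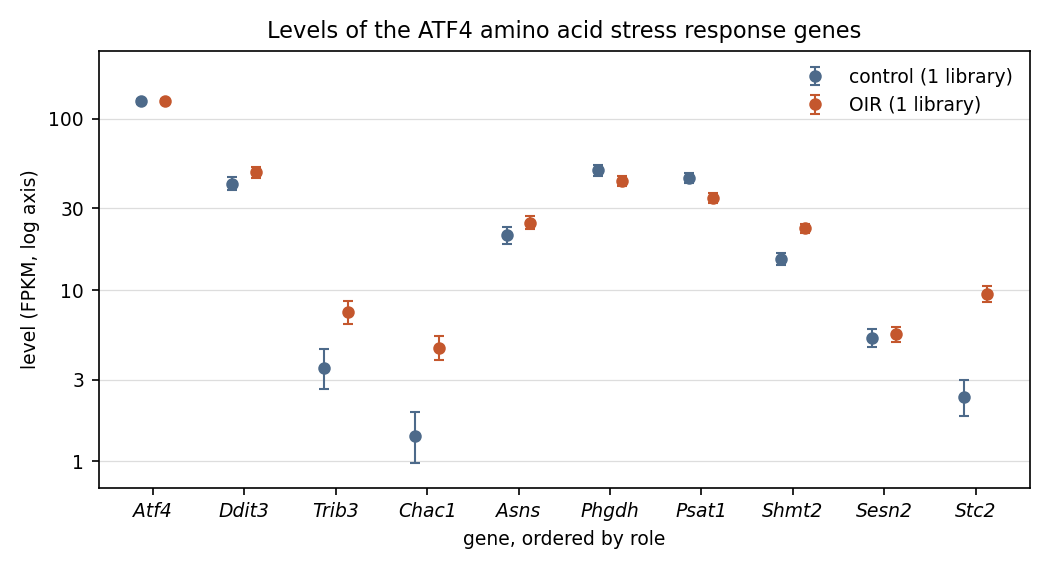
Level of each of the 10 genes in FPKM (log axis) in the control library (blue) and the OIR library (orange), with exact 95% Poisson intervals for counting error as bars. Atf4 sits at 127 FPKM in both libraries, and the intervals of the 2 libraries are apart for Trib3, Chac1, Psat1, Shmt2 and Stc2.

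Atf4 encodes the transcription factor at the head of the response (ENSMUSG00000042406, chromosome 15, 80255184 to 80257540). It had 3449 reads in the control and 4465 in OIR, which come to 127.09 FPKM in each library. The ratio of read shares was 1.000 (0.956 to 1.05), and with the authors' factors it was 0.908 (0.868 to 0.949), wholly below 1. The direction follows the scaling: the difference was -0.14 with the authors' factors and 0.10 with rescaling to TPM. By difference, 10308 tested genes stood above Atf4 and 5574 below it.

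Ddit3 encodes CHOP, the pro-death factor downstream of ATF4 (chromosome 10, 127290774 to 127296288). Its level was 41.8 FPKM in the control, from 540 reads, and 48.7 in OIR, from 814. The ratio was 1.16 (1.04 to 1.30), and with the authors' factors 1.06 (0.947 to 1.18), which includes 1. Exons of Mars and Gm4189 on the other strand cover 4.73% of the exon bases of Ddit3. No source used here says whether reads were counted by strand, so for these and the other overlaps named below the reads of both genes may be mixed.

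Trib3 encodes a pseudokinase that binds ATF4 and CHOP and damps the response (ENSMUSG00000032715, chromosome 2, 152337422 to 152344032). It had 58 reads and 3.49 FPKM in the control, and 160 reads and 7.43 FPKM in OIR. OIR was the higher library by a ratio of 2.13 (1.57 to 2.93). Its difference of 0.91 on the log2(FPKM + 1) scale missed the 2-fold rule, since the added 1 weighs at low levels, and 581 tested genes had a larger one. By the ratio alone, 3 of the 10 genes reached 2-fold, beside 6.38% of tested genes. With the authors' factors the ratio of Trib3 was 1.93 (1.42 to 2.66), below 2.

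Chac1 encodes an enzyme that cleaves glutathione and is a sensitive target of ATF4 (ENSMUSG00000027313, chromosome 2, 119351229 to 119354381). It had the lowest level of the 10 in both libraries, with 36 reads and 1.40 FPKM in the control and 154 reads and 4.62 FPKM in OIR. The ratio was 3.30 (2.29 to 4.89) and the difference 1.23, and 282 tested genes had a larger difference. Because the control count is small, the interval spans more than 2-fold.

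**Figure D3:**
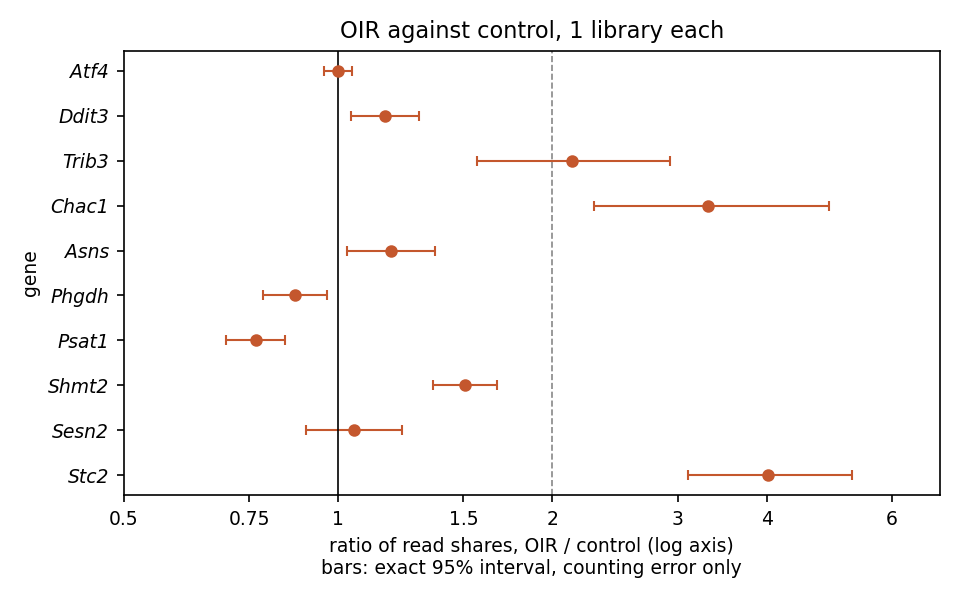
Ratio of read shares, OIR over control (log axis), for each of the 10 genes, with exact 95% intervals for counting error. The solid line marks a ratio of 1 and the dashed line 2; Stc2 and Chac1 have intervals wholly above 2, and Psat1 and Phgdh lie wholly below 1.

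Asns encodes asparagine synthetase, which makes asparagine from aspartate and glutamine (chromosome 6, 7675169 to 7693254). It had 20.9 FPKM in the control, from 324 reads, and 24.8 in OIR, from 498. The ratio was 1.19 (1.03 to 1.37), close to that of Ddit3, and with the authors' factors 1.08 (0.935 to 1.24), which includes 1. The windows of Asns, Chac1 and Trib3 hold the core TGATGNAA, and the counting interval of Asns does not overlap those of the other genes named here with the core. Whether the core bears on these ratios was not tested.

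Phgdh encodes the first enzyme of serine synthesis, which draws off an intermediate of glycolysis (ENSMUSG00000053398, chromosome 3, 98313170 to 98339990). Its level was 50.01 FPKM in the control, from 714 reads, and 43.5 in OIR, from 804. The ratio was 0.870 (0.785 to 0.963). Psat1 encodes the next enzyme, an aminotransferase (ENSMUSG00000024640, chromosome 19, 15904678 to 15947337). It had 45.1 FPKM in the control and 34.6 in OIR, from 875 and 868 reads, and a ratio of 0.766 (0.697 to 0.843). Psat1 had the lowest difference of the 10, -0.37, with 1138 of the 15883 tested genes below it. The third enzyme of the route, Psph, which releases free serine, did not stand lower: it had 195 reads in the control and 305 in OIR, with a ratio of 1.21 (1.01 to 1.45), and exons of Cct6a on the other strand cover 10.4% of its exon bases.

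Beside the lower Phgdh and Psat1, 8 of 12 Müller glia markers were lower in OIR and 4 higher, 2 of these, Sox9 and Crym, at least 2-fold. The median of that list was -0.40, and its summed level was 2777 FPKM in the control and 1872 in OIR, most of it Glul, a glutamine synthetase that is itself an amino acid enzyme. Other lists were also lower in OIR: 9 of 10 retinal ganglion cell markers with a median of -0.47, 6 of 7 melanocyte and pigment epithelium markers with -0.37, and 11 of 11 lens markers with -0.56. The summed levels of these lists were 441 FPKM, 1237 FPKM and 110827 FPKM in the control and 317, 1100 and 77861 FPKM in OIR. The part of any of these cells in the difference of Phgdh and Psat1 was not tested.

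Shmt2 encodes the mitochondrial enzyme that turns serine into glycine and a one-carbon unit (ENSMUSG00000025403, chromosome 10, 127517123 to 127522444). It stood at 15.2 FPKM in the control, from 553 reads, and at 22.9 in OIR, from 1078. The ratio was 1.51 (1.36 to 1.67), opposite in direction to Phgdh and Psat1. Exons of Ndufa4l2 on the other strand cover 1.03% of its exon bases.

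Sesn2 encodes sestrin 2, a leucine sensor that restrains the growth kinase complex mTORC1 (chromosome 4, 132492032 to 132510501). It had 287 reads and 5.25 FPKM in the control, and 391 reads and 5.52 FPKM in OIR. The ratio of 1.05 (0.901 to 1.23) includes 1, and the difference of 0.06 turned to -0.06 with the authors' factors.

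Stc2 encodes stanniocalcin 2, a secreted glycoprotein that is also induced by hypoxia (ENSMUSG00000020303, chromosome 11, 31357307 to 31370074). It had 70 reads and 2.37 FPKM in the control, and 364 reads and 9.50 FPKM in OIR. The ratio was 4.02 (3.10 to 5.26) and the difference 1.64, the largest of the 10, and 109 tested genes had a larger one. In the authors' deposited table its log2 fold change was 1.87 and its adjusted p-value 0.150, the lowest of the 10, in a comparison of 1 library with 1 library that holds nothing on the spread between animals. The whole corneal and conjunctival marker list, 12 of 12 genes higher in OIR with a median of 1.25, endothelial markers, 10 of 10 higher with a median of 0.79, and microglia and macrophage markers, 8 of 9 higher with a median of 0.48, were higher in the same library as Stc2, Chac1 and Trib3. The summed levels of these lists were 431.1, 106 and 49.0 FPKM in the control and 1272, 175 and 76.1 in OIR, and no gene of them was at 0. Erythrocyte markers were also higher, 5 of 5 tested genes with a median of 1.39. The summed level of that whole list was 593 FPKM in the control and 1642 in OIR, with 1 gene at 0 in at least 1 library. The part of any of these lists in the differences of Stc2, Chac1 and Trib3 was not tested.

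**Figure D4:**
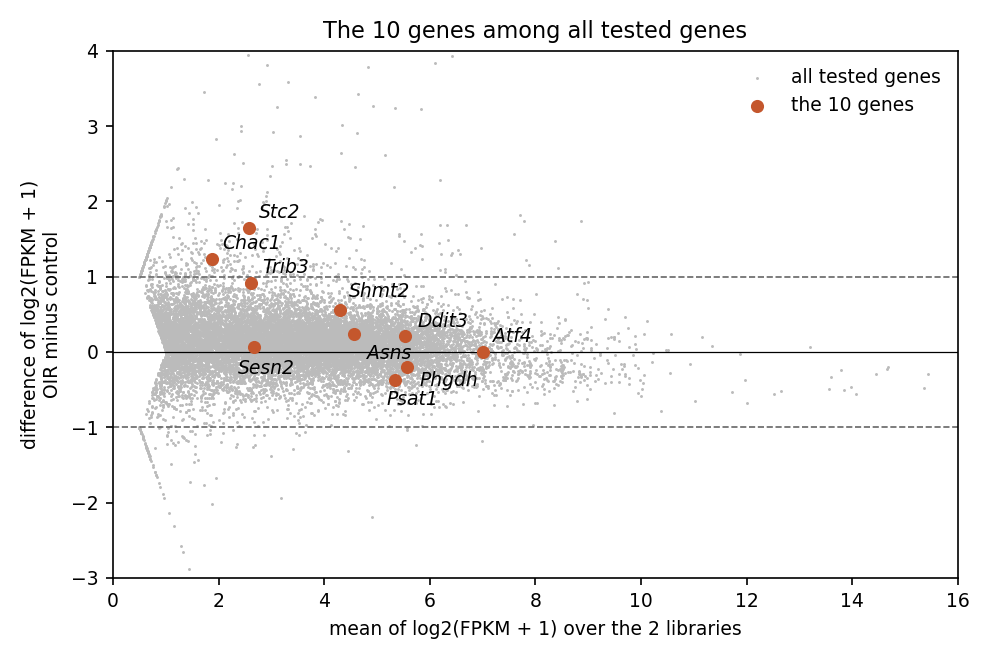
Difference of log2(FPKM + 1), OIR minus control, against the mean of log2(FPKM + 1) over the 2 libraries, for all tested genes (grey) and the 10 genes (orange); dashed lines mark differences of 1 and -1, and 5 genes lie outside the axes. Stc2 and Chac1 lie above the upper dashed line, among genes of low to middle level.

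Per length, Atf4 had the highest level of the 10 and Chac1 the lowest in both libraries. Phgdh, Psat1 and Ddit3 followed Atf4 in that order in the control, and Ddit3, Phgdh and Psat1 in OIR. The control intervals of Phgdh (46.4 to 53.8 FPKM) and Psat1 (42.2 to 48.2) overlapped, as did those of Psat1 and Ddit3 (38.4 to 45.5). In OIR the interval of Ddit3 (45.4 to 52.2) overlapped that of Phgdh (40.5 to 46.6), while Psat1 (32.3 to 37.0) stood below both. At the low end Stc2 passed from the ninth place to the seventh, and Sesn2 from the seventh to the ninth. The level of Atf4 was 91.0 times that of Chac1 in the control and 27.5 times in OIR, and 53.7 and 13.4 times that of Stc2.

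The paralogs of these genes gave few large differences. Of 8 tested paralogs none was at least 2-fold apart, and their median was 0.08, which turned negative in 4 of 13 alternatives. Stc1, the other stanniocalcin, had a ratio of 1.47 (1.17 to 1.85). Chac2, the constitutive relative of Chac1, had 113 reads in the control and 112 in OIR, a ratio of 0.766 (0.584 to 1.00). Trib1 had 1.03 (0.957 to 1.12), Trib2 1.09 (1.03 to 1.15), Sesn1 0.937 (0.858 to 1.02) and Sesn3 0.917 (0.829 to 1.02). Shmt1, the cytosolic counterpart of Shmt2, had 1.12 (0.858 to 1.46), with 4.74% of its exon bases under exons of another gene. Atf5, a relative of Atf4 that is under similar translational control, had 593 reads in the control and 1191 in OIR, a ratio of 1.55 (1.40 to 1.71). Unlike that of Atf4, its interval lay above 1. Exons of Il4i1 on the other strand cover 4.11% of the exon bases of Atf5.

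Upstream of ATF4, 14 genes were taken for eIF2alpha, its kinases and phosphatase subunits, the exchange factor eIF2B, and the kinase regulators Gcn1l1 and Impact. None was at least 2-fold apart, and their median was 0.05, which turned negative in 4 of 13 alternatives. Eif2ak3, which encodes the kinase PERK of the endoplasmic reticulum, had a ratio of 1.52 (1.34 to 1.73), with 8.05% of its exon bases under exons of another gene. Eif2ak2, the kinase PKR that binds double-stranded RNA and is induced by interferon, had 1.78 (1.41 to 2.26). Exons of Gm26637 and of the rRNA gene n-R5s29 on the other strand cover 4.32% of its exon bases. Gcn1l1, the partner of the amino acid sensing kinase GCN2, had 1.25 (1.17 to 1.34). Ppp1r15a, which encodes the stress-induced phosphatase subunit GADD34 and is itself an ATF4 target, stood lower, at 60.3 FPKM in the control and 51.1 in OIR with a ratio of 0.847 (0.797 to 0.901). Impact, an inhibitor of GCN2 signalling, had 0.827 (0.772 to 0.886).

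Among bZIP partners and related regulators 9 of 10 tested genes were higher in OIR, 2 of them at least 2-fold, and the median was 0.66. Batf2 and Batf3 were below 1 FPKM in both libraries. Atf3, a stress-induced factor that ATF4 activates, had 29 reads in the control and 272 in OIR, a ratio of 7.24 (4.93 to 11.02). Cebpb, a binding partner of ATF4, had 25 and 100 reads, a ratio of 3.09 (1.98 to 5.00) and a difference of 1.05, just above the 2-fold rule. Exons of Tmem189 on the other strand cover 20.7% of its exon bases. Fos had 1.78 (1.51 to 2.11) and Jdp2 1.20 (1.03 to 1.40). Nupr1, a stress-induced chromatin protein and reported ATF4 target, went the other way and by a wide margin in reads: 4802 in the control and 3177 in OIR. Its level was 347 FPKM in the control and 177 in OIR, and the ratio was 0.511 (0.488 to 0.535). Its difference of -0.96 lay just short of the 2-fold rule, while its log2 fold change as deposited by the authors was -1.11.

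Of 17 other serine, glycine and folate enzymes none was at least 2-fold apart, 13 were higher in OIR, and the median was 0.25. The highest 3 are mitochondrial folate enzymes that act beside Shmt2. Aldh1l2 had a difference of 0.84, short of the 2-fold rule, and a ratio of 2.16 (1.67 to 2.81). Mthfd1l had a ratio of 1.98 (1.67 to 2.35) and Mthfd2, a frequent marker of ATF4 activity, 1.43 (1.16 to 1.76). Mthfd2l, a relative of Mthfd2, had 0.836 (0.689 to 1.01), and the serine racemase gene Srr 0.844 (0.732 to 0.974). Exons of other genes on the opposite strand cover 14.1% of the exon bases of Aldh1l2 and 29.96% of those of Srr.

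The 19 other amino acid synthesis and sulphur amino acid enzymes had a median of 0.07, which turned negative in 4 of 13 alternatives, with 12 higher, 7 lower and none 2-fold apart. Pycr1, a mitochondrial proline enzyme, had 31 reads in the control and 83 in OIR, a difference of 0.74 and a ratio of 2.07 (1.35 to 3.23). Gpt, an alanine aminotransferase, had 1.55 (1.18 to 2.07). Glul stood lowest at 0.580 (0.569 to 0.591), with 3.49% of its exon bases under exons of other genes. Gss, the glutathione synthetase, had 0.730 (0.668 to 0.798), with 15.4% of its exon bases under exons of other genes.

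Of 16 tested amino acid transporters 12 were higher, 4 lower and none 2-fold apart, with a median of 0.11, which turned negative in 2 of 13 alternatives. Slc7a1, the cationic amino acid transporter, had 305 reads in the control and 767 in OIR, a ratio of 1.94 (1.70 to 2.23). Slc1a4, which carries serine and alanine, had 1.99 (1.70 to 2.34), and Slc38a5 1.72 (1.14 to 2.62). Slc6a9, the glycine transporter, had 0.741 (0.687 to 0.798), with 30.2% of its exon bases under exons of other genes, and Slc38a1 0.951 (0.904 to 1.00).

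Other reported targets of ATF4 or CHOP gave a median of 0.32 across 19 tested genes, and 4 were at least 2-fold higher. These were Atf3 and Cebpb, given above, Cdkn1a and Ero1l. Cdkn1a, the cell cycle inhibitor p21, had 163 reads in the control and 609 in OIR, a ratio of 2.89 (2.42 to 3.45). Ero1l, the oxidase that forms disulphide bonds and is also induced by hypoxia, had 2.18 (1.97 to 2.41). The differences of Cebpb, 1.05, and Ero1l, 1.03, lay just above the 2-fold rule. The authors' deposited log2 fold change of Ero1l was 0.986. Counts of 2-fold genes in the lists were not recomputed with the authors' factors. Sqstm1, an autophagy receptor, had 0.953 (0.911 to 0.997), with 17.3% of its exon bases under exons of Mrnip. Fgf21, a secreted target of ATF4, had no read in either library. The other branches of the unfolded protein response, through ATF6 and XBP1, gave a median of 0.21 across 19 genes, with 17 higher and none 2-fold apart. In them Edem1 had 1.71 (1.47 to 2.00), Ern1 1.47 (1.30 to 1.67) and Hsp90b1 1.37 (1.31 to 1.44, with 15.7% of its exon bases under exons of other genes), while Herpud1, which ATF4 also activates, had 0.834 (0.759 to 0.918) and Dnajb9 0.987 (0.868 to 1.12).

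Of 18 hypoxia-induced genes outside the 10, 17 were higher in OIR and 4 at least 2-fold, with a median of 0.53. The 4 include Ero1l, whose difference of 1.03 lay just above the rule. Adm, a vasodilator peptide, had a ratio of 15.7 (9.37 to 28.4) and Vegfa, the vessel growth factor, 2.99 (2.86 to 3.12). Egln3, an oxygen-sensing hydroxylase, had a ratio of 2.84 (2.46 to 3.28), between those of Trib3 and Chac1. P4ha1 and Ndrg1 had 0.906 (0.848 to 0.967) and 1.02 (0.985 to 1.06), with 8.43% of the exon bases of Ndrg1 under exons of other genes. The mTORC1 amino acid sensing genes, the setting in which Sesn2 acts, had a median of 0.20 over 15 genes and none 2-fold apart. Seh1l, Mios and Depdc5 had ratios of 1.46 (1.31 to 1.64), 1.35 (1.14 to 1.61) and 1.27 (1.13 to 1.42), and Rheb and Nprl2 had 0.920 (0.849 to 0.998) and 1.02 (0.868 to 1.20).

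**Figure D5:**
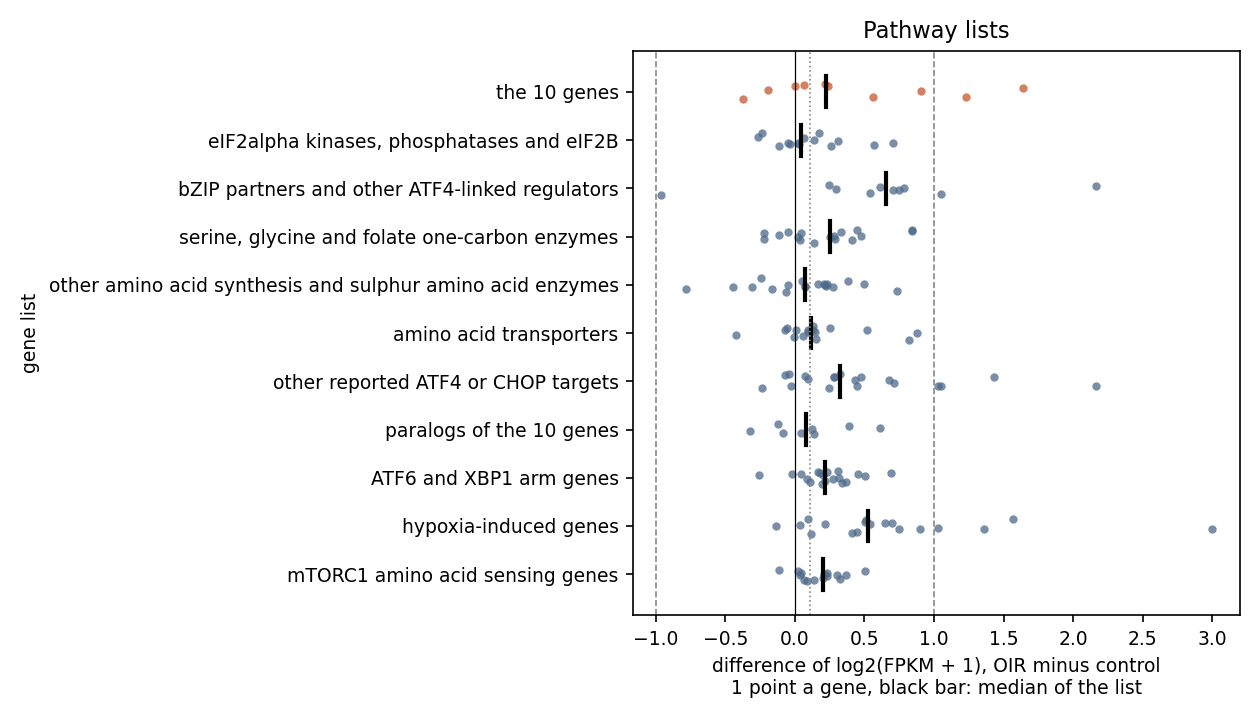
Difference of log2(FPKM + 1), OIR minus control, for each tested gene of the 10 (orange) and of the 10 pathway lists (blue), with the median of each list as a black bar, dashed lines at 1 and -1 and a dotted line at the median of all tested genes, 0.11. The bZIP list, at 0.66, and the hypoxia list, at 0.53, have the highest medians.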

How the data were processed

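RNA sequencing of 1 control and 1 OIR eyeball sample was used. The tools HTSeq 0.6.1, TopHat2 2.0.12 and Bowtie2 2.2.3 and the build mm10 are listed in the submitters' processing notes, with no role, setting, annotation release or use of strand. Per the file headers, the authors deposited raw read counts, FPKM values, a normalised count signal (from which only the library factors were read), a log2 fold change and p-values. 5 broken annotation lines were dropped. FPKM ratios equalled ratios of read shares within 0.1% for all 15717 tested genes with reads in both libraries.

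Differences of log2(FPKM + 1) were taken over genes that reached 1 FPKM in the control or OIR. Beside them stand ratios of read shares with exact conditional (Clopper-Pearson) 95% intervals and FPKM with exact Poisson intervals. Intervals cover counting error only, as each group is 1 library. They treat every read as independent, since PCR copies of a molecule cannot be recognised here, and so may be too narrow. At a gene of median length 3 reads equal 0.111 FPKM in the control and 0.0886 in OIR. Exon overlaps come from GENCODE M21, whose build is also mm10. They are given for named genes where other genes of the deposited table cover at least 1% of the exon bases. The computation was tested on simulated data. Python 3.11.15, scipy 1.17.1, pandas 2.3.3, R 4.3.3 and edgeR 4.0.16 (TMM only) were used.

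The members and lists were chosen with earlier results of these data known. Named genes are the 10 members, all paralogs, and the 3 highest and 2 lowest differences of each pathway list, apart from 1 gene that is not reported here; Psph, Ero1l, Sox9, Crym, Cryaa, Batf2, Batf3 and Fgf21 were chosen after their values were seen. The lists share some genes.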

Additional observations from a re-analysis of the deposited data

How the results depend on the processing

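No paired analysis was possible because each group is 1 library, and for the same reason no library could be left out. Under the alternatives run, Chac1 and Stc2 kept a difference of at least 1 wherever they were tested, Psat1 and Phgdh stayed below 0, and Atf4 and Sesn2 changed sign with the scaling. Leaving out Ddit3 and Shmt2, whose exons overlap other genes, was chosen after seeing the data and gave a median of 0.15, with 2 genes still at least 2-fold higher. The median of the 10 ran from 0.09 to 0.32 over the alternatives that kept a median. No symbol of the 10 repeated, so summing rows was not needed. The authors' factors and TMM gave the same shift, -0.14. Counting intervals with these factors, also chosen after seeing the data, lay above 1 for 4 genes in place of 6 and below 1 for 3 in place of 2.

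Atf4 had a difference of -0.11 centred on the median or within length bins, 0.10 in TPM, -0.067 in TPM without lens, muscle, blood, mitochondrial and rRNA genes, and -0.14 with the authors' factors or TMM. Psat1 had -0.51 with both of the last, Shmt2 0.41 within length bins, and Chac1 and Stc2 1.72 and 2.00 with a pseudocount of 0.01. The mean of the 10 was 0.43 in place of the median of 0.23. On the log2(FPKM + 1) scale none of the 10 was 4-fold higher, although the ratio of read shares of Stc2 was 4.02 (3.10 to 5.26). With an FPKM filter of 5, where Chac1 was not tested, 1 of the 10 was 2-fold higher. Trib3 reached a difference of 1 with a pseudocount of 0.1 or 0.01 and in TPM.

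Over all genes, 1447 were higher and 409 lower at 1.5-fold, 55 and 8 at 4-fold, 924 and 254 with a pseudocount of 0.1, 998 and 273 with 0.01, 251 and 27 with an FPKM filter of 5, and 276 and 22 among protein-coding genes. CPM gave 30 lower, and TPM without the named tissues 185 lower. ATF6 and XBP1 arm genes had a median of 0.10 centred on the median, 0.16 in the reduced TPM, 0.081 with the authors' factors, 0.082 with TMM and 0.14 within length bins. Other ATF4 or CHOP targets had 0.20 with the last 3 settings. Paralogs had 0.18 in TPM and mTORC1 genes 0.027 within length bins.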
